A study of Mus musculus with 6 samples.

Results

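Splicing factors and heterogeneous nuclear ribonucleoprotein (hnRNP) genes were followed in RNA from mature mouse sperm and from testes. The set was chosen by gene symbol alone, without any measured value: every gene with a RefSeq mRNA transcript (accession NM_) in the tables whose symbol starts with Srsf, Srrm, Hnrnp, Sf3a, Sf3b, Snrp, Snrnp, Prpf, U2af, Rbm followed by a digit, or Ptbp. It holds 110 of the 14455 genes with a RefSeq mRNA transcript, and their 137 transcripts. All of these genes matched the RefSeq annotation of GRCm38.p6 by accession and carry the same symbol there.

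According to the labels, the mice were of strain C57BL/6 and 3 to 5 months old, and no treatment or engineered allele is named there. The study's methods name C57BL/6J mice and give an age range in weeks that starts younger. Sperm were released from the caudal epididymis and vas deferens, pooled over mice, and cleared of somatic cells with a detergent lysis buffer, which gave 4 sperm samples. Testes of the same mice gave 2 samples of whole tissue, so that germ cells of all stages and somatic cells of the testis are measured together. Strand-specific paired-end libraries were made after rRNA removal with RNase H, and sperm replicate 1 (sperm 1) was set aside by the study after a correlation check, so the comparisons below use sperm 2, 3 and 4 against testes 1 and 2 and give sperm 1 beside them.

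Pre-mRNA splicing removes introns in the nucleus. Small nuclear ribonucleoproteins (snRNPs), built on rings of Sm proteins, recognise the splice sites with the help of U2AF, SF3A, SF3B and PRPF proteins. SR proteins bind exons and mostly promote the use of nearby splice sites, while hnRNPs and PTB proteins coat the transcript and often repress them. Chromatin of late spermatids is compacted and transcription stops, so mRNA in mature sperm is regarded as a remnant of earlier stages or as material acquired later, and alternative splicing is known to be extensive in testis.

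The tables hold few mRNA counts. RefSeq mRNA made up 9.14 to 10.7% of the estimated counts of a sperm sample and 11.3 and 12.1% of a testes sample. That left 33511 to 100027 mRNA counts per sperm sample, the most in sperm 2 and the fewest in sperm 3, against 322625 and 314273 in testes. Levels are given as CPM, a gene's estimated count as a share of the RefSeq mRNA counts of the sample in ppm. A value of 3 counts, taken as the smallest that can be relied on, corresponds to 30.0 CPM in sperm 2, 89.5 in sperm 3, 55.2 in sperm 4 and 9.30 and 9.55 in testes. Levels in FPKM, where given, are also divided by transcript length. Since these are shares within a sample, fewer cells of a type and less RNA per cell cannot be told apart.

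Marker genes were read as a check of the labels. Protamine Prm2 lay between 1062 and 2392 CPM in the 4 sperm samples and at 1441 and 700 in testes, whereas Prm1 was at 0 to 142 CPM in sperm and at 381 and 369 in testes, and the sperm flagellar gene Odf1 had no count in any sperm sample. The summed level of the 8 genes of sperm and late spermatids was 1557 to 3000 CPM in sperm and 3276 and 2935 in testes. None of the 7 markers of spermatogonia and spermatocytes had a count in sperm, and 4 of them had one in testes. Of the 5 Leydig cell markers, Star was present in sperm 2, 3 and 4 at 160, 1194 and 110 CPM against 521 and 471 in testes, while Insl3, Hsd3b1 and Cyp11a1 had no count in sperm. The summed Leydig level was therefore higher in sperm 3 than in testes. The 5 Sertoli markers summed to 0 to 283 CPM in the 4 sperm samples and 83.7 and 42.7 in testes. Amhr2 made up the whole sum of sperm 1, at 283, 10.0, 0 and 36.8 CPM in sperm 1 to 4 and 27.9 and 6.36 in testes. Clu was at 30.0 and 36.8 CPM in sperm 2 and 4 against 31.0 and 31.8 in testes. Sox9 had a count only in sperm 2, and Wt1 and Gata4 were at 0 in sperm. Epididymal epithelium markers were seen in sperm only through Epcam, at 118, 60.0, 149 and 0 CPM in sperm 1 to 4, with Crisp1, Lcn5 and Cdh1 not listed. Epcam was also present in testes, at 52.7 and 82.7 CPM, so it does not mark the epididymis alone here. Peritubular and vascular markers summed to 0 in 3 sperm samples and 10.0 CPM in sperm 2, where the leukocyte markers summed to 20.0 through Cd4, and the red blood cell genes were at 0 in all samples.

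Splicing genes as a whole took close to the same share of mRNA in sperm and testes, but the leading genes differed. Their summed share of the mRNA counts was 1.32, 1.20 and 1.15% in sperm 2 to 4 and 0.834% in sperm 1, against 0.977 and 1.14% in testes. The means were 1.23 ± 0.0892% in sperm (SD, n = 3) and 1.06 ± 0.117% in testes (SD, n = 2), a ratio of 1.16 that carries no test. The ratio was 0.964 as a share of all counts and 0.771 as a share of summed FPKM, so the direction of this small difference rests on the scale. In testes the 5 genes with the most counts, led by Snrpf and Rbm12b1, held 44.7 and 53.8% of the set's counts. In sperm the 5 leading genes held 57.5 to 67.2%, led by Hnrnpa0 in sperm 1 and 2, Srsf1 in sperm 3 and Hnrnpu in sperm 4.

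Groups of splicing genes with different roles stood in different orders, which are given without a test. HnRNP genes held 0.711, 0.463 and 0.649% of mRNA counts in sperm 2 to 4 and 0.486% in sperm 1, against 0.235 and 0.205% in testes, so that each sperm sample lay above both testes samples. The means were 0.608 ± 0.129% and 0.220 ± 0.0215%. SR proteins held 0.268, 0.358 and 0.247% in sperm 2 to 4 against 0.140 and 0.179% in testes, but sperm 1, at 0.123%, lay below both. Sm and snRNP proteins were lower in sperm, at 0.0162, 0.0585 and 0.0350% in sperm 2 to 4 and none in sperm 1, against 0.158 and 0.277% in testes. RBM genes, a mixed family of RNA-binding proteins of which only some act in splicing, held 0.182, 0.257 and 0.0607% in sperm 2 to 4 and 0.0577% in sperm 1, and 0.309 and 0.349% in testes. PRPF genes overlapped between the groups, with means of 0.0738 ± 0.0651% and 0.0829 ± 0.0112%. Under 4 other scalings, chosen after the values were seen (all counts, TMM, DESeq2 size factors and summed FPKM), the quotient of both means, sperm over testes, stayed at 1.41 to 2.33 for hnRNP genes (2.76 with mRNA counts), 0.0764 to 0.138 for Sm and snRNP genes (0.168) and 0.234 to 0.452 for RBM genes (0.506). For SR proteins it was 1.82 with mRNA counts and 1.18 to 1.51 with 3 of the scalings, but 0.873 with DESeq2 size factors.

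**Figure D1:**
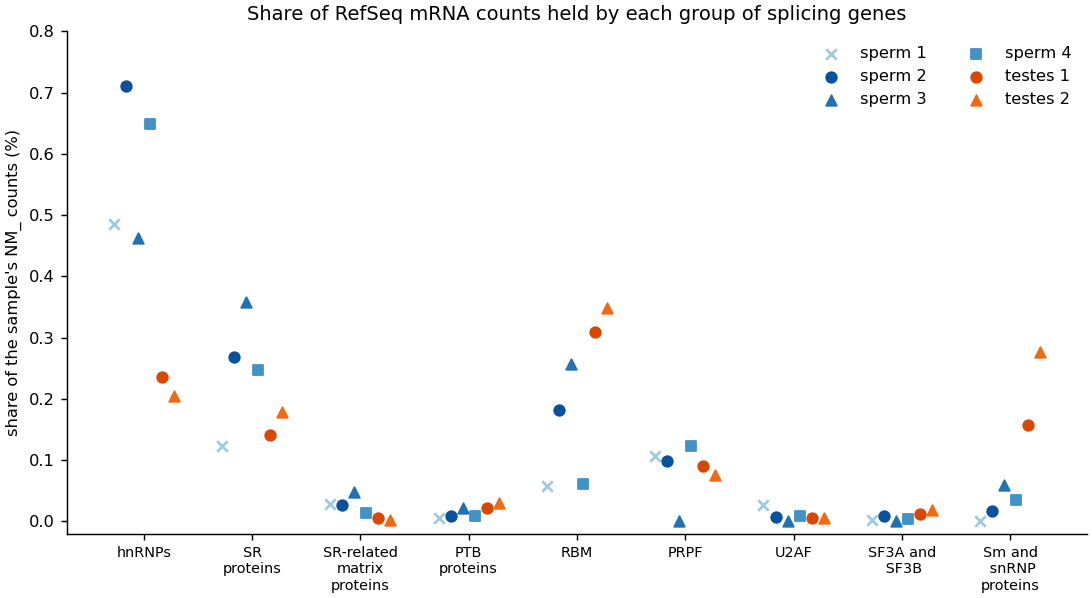
Share of each sample's RefSeq mRNA counts, in percent, held by the 9 groups of splicing genes, with 1 point per sample (blue sperm, orange testes). The hnRNP points of the 4 sperm samples, at 0.463 to 0.711%, all lie above the testes points, and the Sm and snRNP points of the sperm samples all lie below those of testes.

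A few genes made up most of these differences between the means. Without Hnrnpa0 and Hnrnpu, the other 18 hnRNP genes held 0.205 ± 0.0322% in sperm and 0.170 ± 0.0233% in testes. Without Snrpf, the remaining 16 Sm and snRNP genes held 0.0259 ± 0.0283% and 0.0239 ± 0.00441%. They held 0.00821, 0.0585 and 0.0110% in sperm 2 to 4 and 0 in sperm 1, against 0.0207 and 0.0270% in testes. Only sperm 3 thus lay above testes, through Snrpa at 585 CPM, and the other sperm samples stayed below. Without Rbm12b1, the other 34 RBM genes held 0.130 ± 0.0869% and 0.189 ± 0.00615%. These leading genes were set aside after their values had been seen, so the remainders are descriptions.

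Many splicing genes were not seen in sperm at this depth. A count was listed for 63, 17 and 32 of the 110 genes in sperm 2 to 4 and for 23 in sperm 1, against 94 and 97 in testes. At the mRNA total of sperm 3, the smallest, 47.5, 17 and 30.7 genes would be expected in sperm 2 to 4 and 54.7 and 56.3 in testes. The mean of sperm over that of testes was thus 0.391 as listed and 0.572 at equal depth. Over all mRNA genes the ratio at equal depth was 0.543. Among sperm 2 to 4, 28 of the genes were listed only in sperm 2, the deepest, and the listed ratio without it was 0.257. Only 8 genes had a count in all 4 sperm samples, namely Hnrnpa0, Hnrnpd, Hnrnpf, Hnrnpu, Rbm12b1, Srrm1, Srsf1 and Srsf2. In contrast, 45 genes had none in any sperm sample, and 83 were counted in both testes samples. The genes with no count in testes were Rbm24, with 5 and 3 counts in sperm 2 and 4, and Sf3a2, with 1 count in sperm 2.

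**Figure D2:**
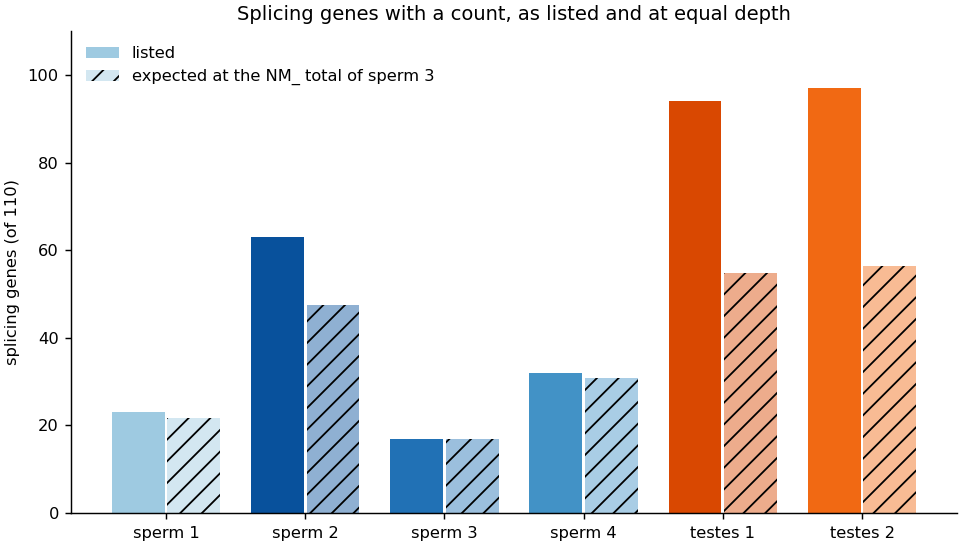
Number of the 110 splicing genes with a count in each sample (solid bars) and the number expected at the mRNA total of sperm 3 (hatched bars). At equal depth sperm 2, at 47.5 genes, comes near the testes samples, at 54.7 and 56.3, while sperm 1, 3 and 4 stay between 17 and 30.7.

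Single genes were compared with edgeR's quasi-likelihood test over all mRNA genes that reached 20 counts over the 5 samples, with Benjamini-Hochberg adjustment, and a gene was called when its adjusted p was under 0.05 and its fold change above 2. The filter left 51 of the 110 genes, the lowest with 20 counts, and 59 were not tested, of which 41 had no count in sperm 2 to 4. The highest sum among the untested genes was 17.15 counts, for Hnrnpk, with 10 and 7.15 counts in testes and none in sperm. Of the 51 genes, 8 were called higher in sperm, beside 6.7% of all 4628 genes tested, and 8 were called lower, beside 20.8%. That is 15.7% of the genes in each direction. The samples did not overlap, with all of sperm 2 to 4 above testes, for 7 of the 51 genes (background 10.9%), and with all below for 23 (background 44.2%). Genes with low counts could pass the filter only through the group in which they were high, so these counts are descriptions. Of the called genes, Hnrnpa0, Hnrnpd, Hnrnpu, Srsf1, Snrpf and Rbm12b1 reached 20 counts in each group alone. The others passed the filter through a single group, and their calls are descriptions. The median log2 fold change was -1.37 over the splicing genes and -1.03 over all genes tested, and -0.47 and -0.53 without testes 1 and -0.32 and -0.80 without testes 2. Over all genes it was -2.06 without sperm 2 and -1.17 without sperm 4, and the splicing genes had the higher median in both fits. The order of these medians thus moved with the samples used.

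Calls by role stand beside 6.7% higher and 20.8% lower of all genes tested. The groups are small, and their shares were not tested against these. Of 14 hnRNP genes tested 3 were higher and 1 lower, and of 7 SR proteins 2 were higher and 1 lower. Of 4 Sm and snRNP proteins 1 was higher and 1 lower, of 14 RBM genes 1 higher and 4 lower, and of 4 PRPF genes 1 lower. Srrm1 was the 1 SR-related matrix protein tested and was higher. None of the 2 PTB genes, the 2 U2AF genes or the 3 SF3A and SF3B genes tested was called.

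**Figure D3:**
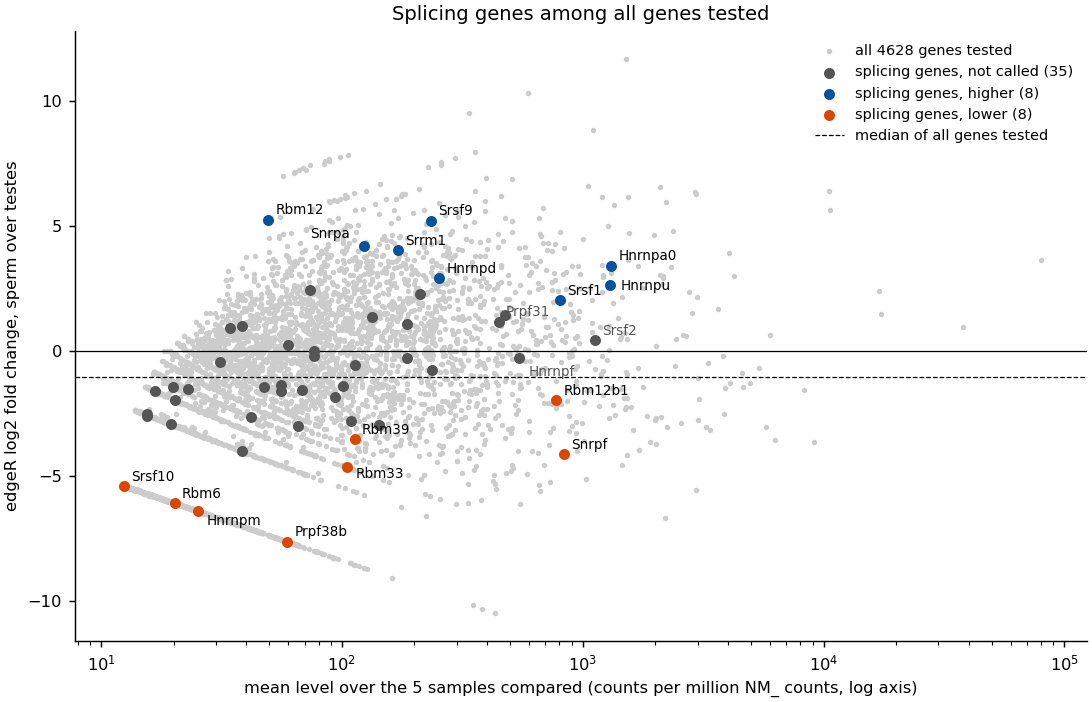
Log2 fold change of sperm over testes from edgeR against the mean level over the 5 samples compared (CPM, log axis), for all 4628 genes tested (grey) and the 51 splicing genes. Hnrnpa0, Hnrnpu and Srsf1 lie among the more abundant genes above 0, Snrpf and Rbm12b1 among those below, and the 4 genes at the lower edge have no count in sperm 2 to 4.

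Hnrnpa0 had the highest mean level of the splicing genes in sperm 2 to 4, with Srsf1 above it in sperm 3 and Hnrnpu above it in sperm 4. It encodes a small hnRNP of the A/B type that binds AU-rich sequences in mRNA, and lies at chr13:58125879-58128556 of GRCm38.p6. Its level was 2659, 1253 and 2282 CPM in sperm 2 to 4 and 2194 in sperm 1, from 266, 42, 124 and 93 counts, against 186 and 200 CPM in testes, from 60 and 63 counts. All 4 sperm samples thus lay above both testes samples. The log2 fold change was 3.42 (SE 0.617), with an edgeR adjusted p of 1.73e-06. This call was kept in each fit that left out 1 sample and under each scaling tried, with log2 fold changes down to 2.47, and was lost only without the filter on low counts (adjusted p 0.135). Per length its mean over sperm 2 to 4 was 76.8 ± 28.8 FPKM (SD, n = 3), against 8.54 ± 0.877 in testes.

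Hnrnpu, a large hnRNP also known as scaffold attachment factor A that binds RNA and chromatin, was at 2419, 985 and 2466 CPM in sperm 2 to 4 and at 613 in sperm 1. In testes it was at 307 and 318 CPM. The sperm samples were again all above testes, with sperm 1 the lowest. In log2 terms the difference was 2.65 (edgeR adjusted p 2.48e-04, SE 0.593), and the call was lost without sperm 2 (2.47, adjusted p 0.0656), with TMM (2.27, 0.0736) and with DESeq2 (1.72, 0.127). Cox20, which overlaps Hnrnpu in the annotation, had 12 and 6 counts in testes and none in sperm.

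Hnrnpd, the AU-rich element binding protein AUF1, was at 546, 269 and 350 CPM in sperm 2 to 4 and 354 in sperm 1, against 62.9 and 41.4 in testes. All sperm samples lay above testes, but only 20.3 and 13 counts stood behind the testes values. Its log2 fold change of 2.91 (SE 1.10) had an edgeR adjusted p of 0.0327, which rose above 0.05 when sperm 2 (0.101), sperm 4 (0.0763), testes 1 (0.294) or testes 2 (0.482) was left out. It was also above 0.05 with all counts as library size (0.0561), with TMM (0.172), with DESeq2 (0.103), with limma on log2(FPKM + 0.1) and log2(FPKM + 1) (0.0907 and 0.0546) and with all 4 sperm samples (0.0579).

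Hnrnpf, which binds G-rich sequences and led the hnRNP genes in testes, was at 620, 507 and 386 CPM in sperm 2 to 4 and at 896 in sperm 1. Testes had 570 and 643 CPM. The groups overlapped, and the log2 fold change of -0.26 (edgeR adjusted p 0.814, SE 0.706) did not pass the test. Hnrnpm, a splicing regulator of the same class, was the hnRNP gene called lower, with no count in any sperm sample and 16 and 24 counts in testes, or 49.6 and 76.4 CPM. Against a floor of 3 counts over sperm 2 to 4 together it was at least 3.94-fold lower, with an edgeR adjusted p of 0.0240. This bound, like those for other genes below, allows for counting error only. Hnrnpm passed the filter on low counts through its testes counts alone, so its call is a description. The single floor of sperm 3, at 89.5 CPM, lies above both testes values, and the adjusted p was 0.0926 without sperm 2, 0.0763 without sperm 4 and 0.226 without testes 1.

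Among the SR proteins, Srsf2, also called SC35 and a marker of nuclear speckles, had the highest mean level of sperm 2 to 4 and of testes, with Srsf1 above it in sperm 1 and sperm 3. It was at 1410, 1015 and 1362 CPM in sperm 2 to 4, at 425 in sperm 1 and at 809 and 1050 in testes. Testes and sperm overlapped, with a log2 fold change of 0.45 (edgeR adjusted p 0.583, SE 0.564) whose sign turned under TMM (-0.04) and DESeq2 (-0.55) scaling. Per length it stood at 66.3 ± 14.6 FPKM in sperm and 58.5 ± 13.6 in testes.

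Srsf9, an SR protein that takes part in alternative splice site choice, had the smallest adjusted p among the SR genes. It had 33, 17 and 17 counts in sperm 2 to 4 and none in sperm 1, against 2 and 4 counts in the deeper testes libraries. The levels were 330, 507 and 313 CPM in sperm 2 to 4 and 6.20 and 12.7 in testes. Its log2 fold change was 5.22 (edgeR adjusted p 0.00218, SE 1.34). The adjusted p was 0.172 without testes 1 and 0.108 without testes 2. Srsf9 passed the filter on low counts through its sperm counts alone, so its call is a description. Gatc, which overlaps Srsf9 in the annotation, had 33 and 21 counts in testes and none in sperm. In sperm 1 a count of 0 allows up to 70.8 CPM, which is under the values of the other sperm samples, so that sperm 1 lay below them beyond counting error.

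Srsf1, the SR protein first described as splicing factor SF2, was at 740, 2059 and 681 CPM in sperm 2 to 4 and at 802 in sperm 1. In testes it was at 214 and 347 CPM. All sperm samples lay above testes, sperm 3 far above the others. On the log2 scale the difference was 2.03 (edgeR adjusted p 0.0240, SE 0.677) and did not pass with TMM (1.18, adjusted p 0.429), DESeq2 (0.88, 0.433) or limma on log2(FPKM + 0.1) and log2(FPKM + 1) (adjusted p 0.154 and 0.131). The adjusted p was 0.0925 without sperm 2, 0.229 without testes 1 and 0.132 without testes 2. Srsf10, an SR protein that acts as a repressor when dephosphorylated, had no count in sperm and 10 and 9.78 counts in testes. Against a floor of 3 counts over sperm 2 to 4 together it was at least 1.94-fold lower, under the 2-fold change asked of a call. The edgeR adjusted p was 0.0242, and without sperm 2, 3 or 4 it was 0.118, 0.0698 or 0.0763. Srsf10 passed the filter on low counts through its testes counts alone, which left only the lower direction open. Its call is therefore a description. Both testes values, 31.0 and 31.1 CPM, lie under the single floors of sperm 1, 3 and 4.

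The matrix protein Srrm1 (SRm160), a coactivator of splicing, was at 220, 477 and 129 CPM in sperm 2 to 4 and at 118 in sperm 1, against 21.7 and 9.55 in testes. The groups stayed apart, on 5 to 22 counts per sperm sample and 7 and 3 in testes. Srrm1 passed the filter on low counts through its sperm counts alone, so its call is a description. Its log2 fold change was 4.05 (edgeR adjusted p 0.0240, SE 1.42), with adjusted p of 0.0896 without sperm 2, 0.267 without testes 1 and 0.488 without testes 2, and of 0.153 with TMM, 0.0618 with all 4 sperm samples and 0.0569 with limma on log2(FPKM + 0.1). Srrm2, its larger partner, was at 40.0 CPM in sperm 2, at 165 in sperm 1, at 0 in sperm 3 and 4 and at 26.3 and 13.5 in testes, and did not reach 20 counts.

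Snrpf was the most abundant splicing gene of testes and the one with the smallest adjusted p. It encodes SmF, a member of the Sm ring on the spliceosomal snRNAs, and lies at chr10:93583029-93589658. It had 442 and 786 counts in testes but 8, 0 and 13 in sperm 2 to 4 and none in sperm 1. The levels were 1370 and 2501 CPM in testes and 80.0, 0 and 239 in sperm 2 to 4, so that both testes samples lay above every sperm sample. Its log2 fold change was -4.11 (edgeR adjusted p 8.73e-08, SE 0.673), and the call was lost without sperm 2 (-3.88, adjusted p 0.0538) and with limma on log2(FPKM + 0.1) (adjusted p 0.139). Per length it was at 298 ± 137 FPKM in testes, above every other gene of the set, and at 14.3 ± 17.0 in sperm. The annotated gene Ccdc38 overlaps it, and had 46 and 35 counts in testes.

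The other Sm and snRNP genes rested on few counts. Snrpa, the A protein of the U1 snRNP, was called higher (log2 fold change 4.22, edgeR adjusted p 0.0426, SE 1.67) with the groups overlapping. Sperm 3 gave 19.6 of its counts, at 585 CPM, against 1.21 counts in sperm 2, none in sperm 1 and 4, and 3 and 3.23 counts in testes. Without sperm 3 it fell under the 20 counts needed for the test, and the adjusted p was 0.0925 without sperm 2, 0.486 without testes 1 and 0.533 without testes 2. It was also above 0.05 with all counts as library size (0.0669), TMM (0.278), DESeq2 (0.203), all 4 sperm samples (0.139) and either limma fit (0.863 and 0.625). Snrpa passed the filter on low counts through its sperm counts alone, so its call is a description. BC024978, which overlaps Snrpa, had 6 and 9 counts in testes and 1 in sperm 2. Snrpn, named after its values were seen as a gene with an imprinted locus, had a log2 fold change of -2.93 (SE 1.43) that did not pass (edgeR adjusted p 0.110).

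The upstream 250 bases of Hnrnpa0, Srsf9 and Snrpf are given because these genes had the smallest adjusted p among the hnRNP, SR and Sm genes, a choice made after their values were seen. Sequences are from RefSeq on GRCm38.p6, read 5′ to 3′ toward the transcription start, and capitals mark a CCAAT box (CCAAT), a GC box (GGGCGG) or the half-site of a cAMP response element (TGACG) on either strand.
Hnrnpa0, chr13:58128557-58128806, minus strand: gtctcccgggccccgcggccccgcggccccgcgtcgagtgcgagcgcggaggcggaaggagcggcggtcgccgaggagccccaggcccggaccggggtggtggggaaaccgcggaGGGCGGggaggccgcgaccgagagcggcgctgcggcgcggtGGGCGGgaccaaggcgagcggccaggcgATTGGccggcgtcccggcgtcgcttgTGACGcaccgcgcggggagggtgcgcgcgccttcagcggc
Srsf9, chr5:115326927-115327176, plus strand: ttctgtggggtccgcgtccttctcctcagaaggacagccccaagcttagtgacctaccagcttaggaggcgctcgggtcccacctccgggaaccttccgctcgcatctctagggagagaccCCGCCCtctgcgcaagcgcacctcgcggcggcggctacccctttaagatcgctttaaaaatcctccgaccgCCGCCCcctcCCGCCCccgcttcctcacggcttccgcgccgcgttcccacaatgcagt
Snrpf, chr10:93589659-93589908, minus strand: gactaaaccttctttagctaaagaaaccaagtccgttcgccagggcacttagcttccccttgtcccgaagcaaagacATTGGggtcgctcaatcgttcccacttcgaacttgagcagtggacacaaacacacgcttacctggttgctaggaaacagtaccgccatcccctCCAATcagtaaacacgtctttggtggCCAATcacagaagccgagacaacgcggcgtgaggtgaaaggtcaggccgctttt
The Hnrnpa0 window is 81.2% G and C and holds 2 GC boxes, 1 CCAAT box and 1 half-site. Srsf9, at 65.2%, holds 3 GC boxes and neither of the others. The annotated span of Srsf9 starts at chr5:115327163, so the last bases of its window lie inside that span. Snrpf, at 52.0%, holds 3 CCAAT boxes and no GC box. TATAAA was in none of the 3 windows.

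Promoters of the set were rich in G and C. The median was 59.6% over 117 windows of 92 of the genes, and 52.4% over all 32851 windows of the same length. GC boxes were in 56.4% of the set's windows and 32.7% of all, CCAAT boxes in 40.2 and 33.8%, TATAAA in 8.55 and 12.4%, and TGACG in 36.8 and 17.8%, with either strand counted. The full element TGACGTCA, which contains TGACG, was in 1.71% of the set's windows and 1.55% of all. Among the 9 windows of the genes called higher, 7 held a GC box, as did 3 of the 8 windows of the genes called lower, where CCAAT was in 5 against 2. A match of letters is not a binding site, and these shares carry no test.

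Of the 14 RBM genes tested, 4 were called lower, beside 20.8% of all genes, and 1 higher, beside 6.7%. Rbm12b1, an RNA-binding protein with several RNA recognition motifs, had the highest mean level of the RBM genes in both groups. It was at 370, 477 and 239 CPM in sperm 2 to 4 and 118 in sperm 1, against 1246 and 1556 in testes, and the groups did not overlap. This gave a log2 fold change of -1.96 (edgeR adjusted p 0.0240, SE 0.634). Its adjusted p was 0.0925, 0.0763, 0.128 and 0.274 without sperm 2, sperm 4, testes 1 and testes 2. Since the symbol also has close relatives (Rbm12b2), counts may be split between near copies.

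Rbm33 had 67 and 93 counts in testes, while its 2 sperm counts were both in sperm 2. Rbm39, a coactivator related to U2AF, had 88.3 and 75.6 counts in testes, 5.07 in sperm 2, 6 in sperm 1 and none in sperm 3 and 4. Rbm6, a relative of the splicing regulator Rbm5, had 10 and 22 counts in testes and none in sperm. For all of these the sperm samples lay below testes, with Rbm39 in sperm 1 at 142 CPM against 274 and 241. The testes values of Rbm6, 31.0 and 70.0 CPM, lie under the single floors of sperm 1 and 3, at 70.8 and 89.5. They lie on either side of the 55.2 of sperm 4, so the zeros of these 3 samples do not place them below testes. Rbm33, Rbm39 and Rbm6 passed the filter on low counts through their testes counts alone, so their calls are descriptions. The log2 fold changes were -4.64 (SE 1.60) for Rbm33 and -3.52 (SE 1.41) for Rbm39, with edgeR adjusted p of 0.0240 and 0.0469, and Rbm6 was at least 3.16-fold lower (adjusted p 0.0240). The 3 calls were lost without sperm 2 (adjusted p 0.073 for Rbm33, 0.0698 for Rbm39 and 0.101 for Rbm6), without sperm 4 (0.0763, 0.127 and 0.0763) and without testes 1 (0.339, 0.536 and 0.226), and the first 2 also without testes 2 (0.488 and 0.535). Rbm39 was also lost with TMM (0.0646), filterByExpr (0.0708), all 4 sperm samples (0.208) and limma on log2(FPKM + 0.1) (0.0801), and Rbm6 with DESeq2 (0.0641).

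Rbm12 was the RBM gene called higher, on 17 counts in sperm 2 and 4 in sperm 4. It had none in sperm 1 and 3 or testes 1, and 1 in testes 2, so that the groups overlapped. Rbm12 passed the filter on low counts through its sperm counts alone, so its call is a description. The log2 fold change of 5.26 (edgeR adjusted p 0.0240, SE 1.82) lost its call without testes 1 (0.617) or testes 2 (0.488), and without sperm 2 or sperm 4 the gene was not tested. It was also above 0.05 with TMM (0.0813), DESeq2 (0.0891), all 4 sperm samples (0.0545) and limma on log2(FPKM + 0.1) and log2(FPKM + 1) (0.303 and 0.236). Cpne1, which overlaps Rbm12 in the annotation, had 2 and 12 counts in sperm 2 and 4 and none elsewhere. Rbm15, named after its values were seen, was at 250, 537 and 147 CPM in sperm 2 to 4, 0 in sperm 1 and 55.8 and 70.0 in testes. Its groups in the comparison did not overlap, yet the log2 fold change of 2.27 (SE 1.17) did not pass (edgeR adjusted p 0.135).

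Of the 4 PRPF genes tested, 1 was called lower, beside 20.8% of all genes. Prpf38b, related to a factor that activates the spliceosome, was called lower with 71 and 24 counts in testes and none in any sperm sample. That is at least 9.28-fold lower against 3 counts over sperm 2 to 4 (edgeR adjusted p 0.0240). The testes levels of 220 and 76.4 CPM lie on either side of the 89.5 of sperm 3's own floor. Prpf38b passed the filter on low counts through its testes counts alone, so its call is a description. Its adjusted p was 0.0925 without sperm 2, 0.0763 without sperm 4, 0.226 without testes 1 and 0.258 without testes 2. Prpf31, a component of the U4/U6.U5 tri-snRNP, was at 790, 0 and 939 CPM in sperm 2 to 4, 826 in sperm 1 and 353 and 162 in testes. Sperm 3 was thus the sample without it, with a log2 fold change of 1.19 (edgeR adjusted p 0.260, SE 0.793) with sperm 3 and 1.74 (adjusted p 0.00184) without. Prpf39, of the U1 snRNP, was at 50.0, 0 and 55.2 CPM in sperm 2 to 4, 236 in sperm 1 and 214 and 395 in testes. Its log2 fold change of -2.95 (edgeR adjusted p 0.0680, SE 1.27) passed without sperm 3 (-2.53, 0.00749), while sperm 1 lay between the testes samples.

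None of the branch point and polypyrimidine tract factors tested was called, beside 6.7% higher and 20.8% lower of all genes. U2af2, the U2AF subunit that binds the polypyrimidine tract, had 11, 5, 0 and 5 counts in sperm 1 to 4 and 9 and 7 in testes. The small subunit U2af1 had 0, 2, 0 and 0 counts in sperm 1 to 4 and 8.10 and 12.2 in testes. Neither passed the test (edgeR adjusted p 0.596 and 0.332). Sf3b2, of the complex that holds the U2 snRNP at the branch point, had 1, 4, 0 and 2 counts in sperm 1 to 4 and 6 and 19 in testes, and Sf3b5, of the same complex, had 0, 2, 0 and 0 against 13 and 13. These did not pass either (edgeR adjusted p 0.836 and 0.244). Ptbp1, the polypyrimidine tract binding protein, had 0, 4, 0 and 5 counts in sperm 1 to 4 against 48.0 and 59 in testes (log2 fold change -1.84, edgeR adjusted p 0.331, SE 1.40). Ptbp2, its relative known from neurons and germ cells, had 2, 2, 7 and 0 counts in sperm 1 to 4 against 18 and 31 (-0.20, SE 1.48, adjusted p 0.940). Plppr3, which overlaps Ptbp1 in the annotation, had 112 and 79 counts in testes and 11 to 70 in sperm.

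**Figure D4:**
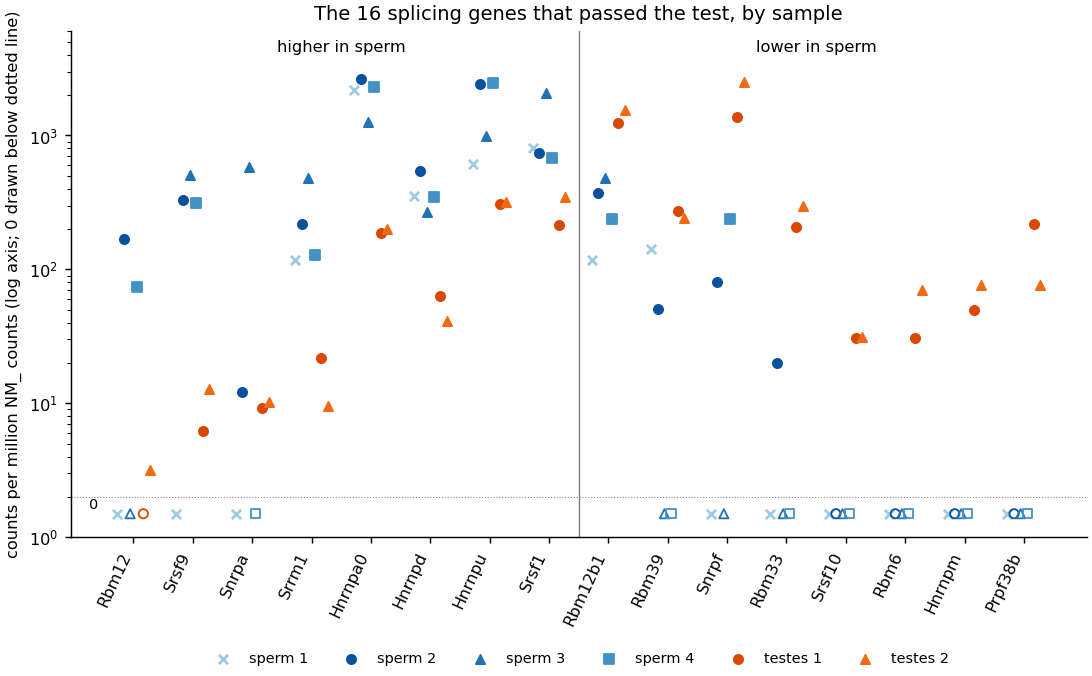
Level of the 16 splicing genes that passed the test in each sample, in CPM on a log axis, with 0 drawn as open symbols below the dotted line (crosses, sperm 1, set aside in the comparison). Hnrnpa0, Hnrnpd, Hnrnpu, Srrm1 and Srsf1 have all 4 sperm samples above testes, and Prpf38b, Hnrnpm, Rbm6 and Srsf10 have no count in any sperm sample.

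Sperm 1, which took no part in the test, had no count for Srsf9, Snrpa and Rbm12. Sperm 3, in which Star was higher than in testes, was the highest of the sperm samples for Srsf9, Snrpa, Srrm1, Srsf1 and Rbm12b1 and the lowest for Hnrnpa0, Hnrnpd and Hnrnpu among the samples compared. The other 4 Leydig markers, Cyp17a1, Cyp11a1, Hsd3b1 and Insl3, had no count in sperm 3, and the part of Leydig cell RNA in these values was not tested. Without sperm 3, edgeR called 10 splicing genes higher and 9 lower, beside 532 and 901 of all 4524 genes then tested, among them 7 of the 8 higher calls above, all but Snrpa.

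The number of calls moved with the libraries used, over all genes as well as in the set. Without sperm 2, edgeR called 2 splicing genes higher (Hnrnpa0 and Srsf9) and 0 lower, and over all 4238 genes it called 96 and 83. Without sperm 4 it called 6 higher and 1 lower, beside 215 and 190 of 4455. Without either testes sample it called 2 higher (Hnrnpa0 and Hnrnpu) and 1 lower (Snrpf), beside 103 and 79 of 3163 genes without testes 1 and 89 and 65 of 3425 without testes 2. Hnrnpa0 was called in every one of these fits.

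Further genes of the splicing pathway, from a list of 149 symbols that the rule of the set does not match, were counted in the same fit. Of these, 133 were in the tables and 59 were tested, of which 3 were called higher (5.08%, background 6.7%) and 7 lower (11.9%, background 20.8%), with a median log2 fold change of -1.30. All of sperm 2 to 4 lay above testes for 5 of them (8.47%) and below for 25 (42.4%), beside 10.9 and 44.2% of all genes. Cwc22, a splicing factor needed to load the exon junction complex on mRNA, was at 600, 2477 and 166 CPM in sperm 2 to 4 and 755 in sperm 1, against 43.4 and 38.2 in testes (log2 fold change 4.68, edgeR adjusted p 1.70e-06, SE 0.843). Sart1, of the tri-snRNP, was at 630, 477 and 515 CPM in sperm 2 to 4 and 778 in sperm 1, against 74.4 and 76.4 (2.84, SE 0.957, adjusted p 0.0240). Both lay above testes in all 4 sperm samples, and the call of Sart1 was lost when any sample but sperm 3 was left out (adjusted p 0.0925 without sperm 2, 0.0698 without sperm 4, 0.227 without testes 1 and 0.262 without testes 2) and with TMM (0.169) or DESeq2 (0.0876). The call of Cwc22 was lost in both limma fits (0.0929 on log2(FPKM + 0.1) and 0.0782 on log2(FPKM + 1)).

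Esrp2, an epithelial splicing regulator, was at 170, 0 and 73.6 CPM in sperm 2 to 4 and 495 in sperm 1, against 6.20 and 0 in testes, so the groups overlapped at 0 (log2 fold change 4.53, edgeR adjusted p 0.0350, SE 1.73, and 0.451 and 0.730 without testes 1 and 2, 0.109 with TMM, 0.127 with DESeq2 and 0.379 and 0.265 with limma). Its relation to the Epcam values given above was not tested. Esrp2 passed the filter on low counts through its sperm counts alone, so its call is a description. Zrsr1, a relative of the small U2AF subunit, had the smallest adjusted p among the lower calls of the list and is named here after its values were seen. It had 285 and 306 counts in testes, 3 in sperm 2 and none in the other sperm samples, or 883 and 974 CPM against 30.0 in sperm 2. Its log2 fold change was -5.95 (edgeR adjusted p 8.53e-07, SE 1.04), and the call was lost only without the filter on low counts (0.178). The gene lies within the annotated span of Commd1. Zrsr1 passed the filter on low counts through its testes counts alone, so its call is a description.

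Matr3, a nuclear matrix protein, had 46.8 and 84 counts in testes and none in sperm (adjusted p 0.0128, and 0.0888, 0.226 and 0.276 without sperm 2, testes 1 and testes 2). Coil, the marker protein of Cajal bodies where snRNPs mature, had 23 and 35 counts in testes and none in sperm, and Tial1, a regulator of U1 recruitment, had 14 and 22 and none. Pcbp2, a poly(C)-binding hnRNP (hnRNP E2), had 26.8 and 47.2 counts in testes, 2.85 in sperm 1, 0.24 in sperm 2 and none in sperm 3 and 4. The edgeR adjusted p was 0.0240 for each of these last 3 genes, and was above 0.05 for each of them without sperm 2 (0.0925, 0.0936 and 0.0925 for Coil, Tial1 and Pcbp2), without sperm 4 (0.0763 for each) and without testes 1 (0.228, 0.226 and 0.229). With all 4 sperm samples that of Pcbp2 was 0.228. Matr3, Coil, Tial1 and Pcbp2 passed the filter on low counts through their testes counts alone, so their calls are descriptions.

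RefSeq transcripts of the same gene were set side by side where the leading one differed between the groups. For Hnrnpd all counts of the 4 sperm samples, 15, 54.6, 9 and 19, were assigned to NM_001077267. In testes this transcript had none, and the 20.3 and 13 counts went to NM_001077265 and NM_001077266. The transcripts are 6607, 6811 and 6754 bases long and so differ little in length. The assigned counts separated by group without overlap, but how well fragments tell these transcripts apart was not tested. Srsf1 counts went to NM_173374 in sperm 3 (100%) and sperm 2 (61.9%), but to NM_001078167 in sperm 1 and 4 (100%) and in testes (100 and 94.7%). Prpf31 changed between samples of 1 group, with all 114 counts of testes 1 on NM_027328 and all 51 of testes 2 on NM_001159714, and the same change between sperm 1 and sperm 2 and 4. The assignment of Prpf31 counts thus swapped wholly between the testes replicates. The cause was not tested, and none of these differences was tested.

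**Figure D5:**
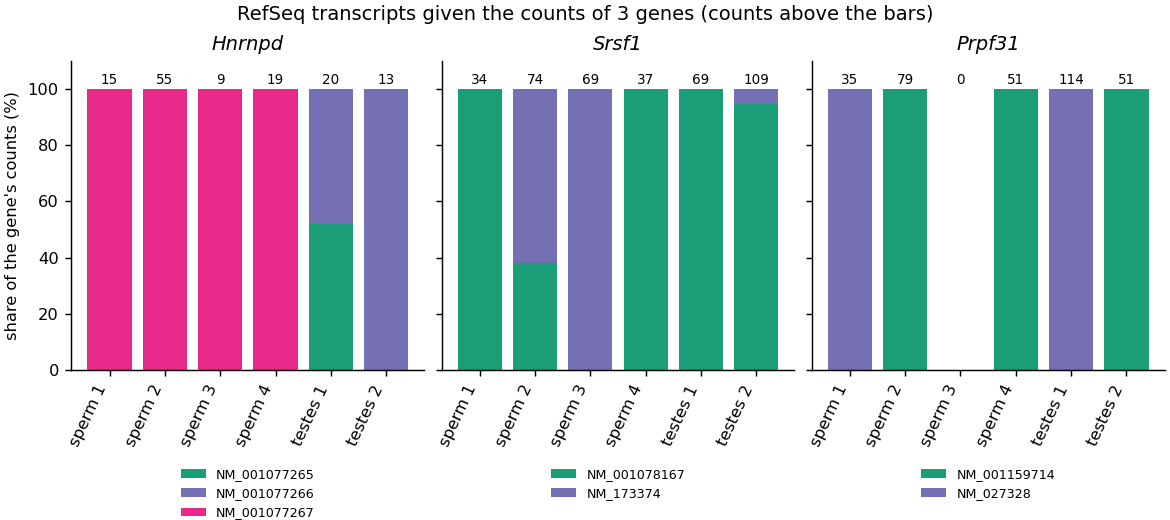
Share of the gene's counts, in percent, given to each RefSeq transcript of Hnrnpd, Srsf1 and Prpf31 in the 6 samples, with the gene's counts above the bars. The assignment of Hnrnpd counts separates sperm from testes, while that of Prpf31 switches between the 2 testes samples and that of Srsf1 between the sperm samples.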

How the data were processed

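RNA from 4 sperm and 2 testes samples of mice was measured by strand-specific, paired-end, rRNA-depleted RNA-seq, and samples were grouped by their titles. Replicates are separate pools of mice according to the study's methods. According to those methods, adaptor, empty and low-quality reads were removed and the rest aligned with SOAPaligner/SOAP2. The submitters' processing notes name HISAT and the build mm10 without a role. The program that counted fragments, and whether it used strand, are not given in the sources used here, so reads of genes that overlap cannot be told apart. The deposited tables hold, for each transcript with a value in that sample, an estimated count (expected count, not scaled) and an FPKM that the authors scaled by transcript length and mapped fragments. Transcripts absent from a table were taken as 0, and only RefSeq mRNA rows (NM_) were used.

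Estimated counts were summed per gene symbol and rounded for the tests. The main comparison was edgeR 4.0.16 in R 4.3.3 (quasi-likelihood test, library size set to the NM_ total, no further factor, at least 20 counts over the 5 samples, Benjamini-Hochberg adjustment over 4628 genes), with sperm 2 to 4 against testes 1 and 2. SE were taken as the log2 fold change over the square root of the F statistic. DESeq2 1.42.0, limma 3.58.1 on log2(FPKM + 1) and log2(FPKM + 0.1), TMM factors, other library sizes, other filters and other sets of samples were alternatives. Fits were tested on simulated data, where the changed genes had at least 3 expected counts in the smallest library before the change. That test does not cover calls on genes with fewer counts. Depths were 33511 to 322625 mRNA counts, and floors of 3 counts cover counting error only. Between replicates, chi-square over its degrees of freedom was 4.93 to 12.5, so no samples were merged for the tests. The floor over sperm 2 to 4 together and the leading transcripts used sums over the samples of a group. Folds given as at least a value come from that floor and do not allow for the spread between replicates. No batch is named in the labels. Correlations of deviations between same-numbered sperm and testes samples were -0.0208 and -0.0604 over 4728 genes, so the numbers were not taken as pairs.

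The set, the lists and the tests were chosen with earlier results of these data known. Named genes were the called genes, the highest gene in sperm and in testes of each role, up to 3 genes without counts in sperm, genes whose leading transcript differed between groups with at least 20 counts in each, and up to 4 genes in each direction of the further list. Hnrnpa3, Hnrnpk, Rbm15, Rbm24, Sf3a2, Snrpn and Zrsr1 were named after their values were seen. Gene positions and promoters come from RefSeq on GRCm38.p6, joined by accession and symbol.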

Additional observations from a re-analysis of the deposited data

Results flagged for a closer look

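A Dixon criterion, which chance meets in about 1 in 20 sets, was applied to 38 sets of 4 sperm values. These were the named genes, the share of all splicing genes, the number of them listed and the share of each role. In 6 of them, all named genes, 1 sample stood apart from the other 3. Sperm 3 stood apart for Snrpa, at 585 CPM, for Srsf1, at 2059, and for Prpf31, at 0. Sperm 2 stood apart for Rbm33, Sf3b5 and U2af1, each at 20.0 CPM, which is 2 counts of this deepest sperm library where the others had none. A gene counted in only 1 of the 4 samples meets the criterion through its zeros, so the rate of 1 in 20 does not hold for these 3.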

How the results depend on the processing

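The direction of each called gene named above, except Snrpa, held in every alternative that could be fitted, while the number of calls varied. Without the filter on low counts edgeR called 0 splicing genes higher and 0 lower and 0 and 0 of the further list, with 108 splicing genes tested, and 15 and 4 of all 14387 genes. Higher and lower splicing genes numbered 2 and 7 with TMM (117 and 927 of all 4628 genes, against 310 and 963 in the main comparison), 3 and 10 with DESeq2 (179 and 841), 3 and 8 with limma on log2(FPKM + 0.1) (192 and 1014), 4 and 15 on log2(FPKM + 1) (227 and 1259), 6 and 3 with filterByExpr (264 and 295 of 1976), and 4 and 8 with all 4 sperm samples (256 and 973 of 4728). The further list gave 1 higher with TMM, with DESeq2 (and 12 lower) and with either limma fit (13 lower on log2(FPKM + 1)). With filterByExpr it gave 4 lower, and Cwc22 and Sart1 kept their higher calls. Leaving out 1 sample gave 2 to 10 higher and 0 to 9 lower splicing genes, and 1 to 6 higher and 1 to 15 lower of the list. The median log2 fold change was -2.30 with DESeq2, -0.26 with filterByExpr, -2.47 with limma on log2(FPKM + 0.1), and -1.11 to -0.32 without 1 sample. Over all genes tested, scaling moved it from -1.03 to -1.48 with TMM, -1.28 with all counts and -2.07 with DESeq2. The summed share's ratio was 0.964 over all counts, 0.771 over FPKM, 1.06 with all 4 sperm samples, and 1.07 to 1.25 without 1 sample.

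With the replicate number as a block over all 6 samples, edgeR called 2 higher (Hnrnpa0, Hnrnpu) and 2 lower (Snrpf, Rbm12b1) splicing genes, beside 179 and 122 of all 4728 genes. Of the further list it called 1 lower, and Cwc22 and Sart1 kept their higher calls. The block rests on the pairs numbered 1 and 2, whose deviations were not correlated. It turned Snrpa to -0.61, Hnrnpf to 0.30 and Srsf2 to -0.22. Srsf2 was also -0.55 with DESeq2 and -0.036 with TMM, Prpf31 was -1.09 and -0.094 and U2af2 -0.51 with limma, and Ptbp2, at -0.20 in the main comparison, ran from -2.59 (without sperm 3) to 0.40 when 1 sample was left out, turning to 0.33, 0.40 and 0.35 without sperm 2, sperm 4 and testes 2. The cause was not tested. Some genes fell under the filter in some alternatives and gave no value there.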

Other observations

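Per transcript length, the order of the splicing genes differed between sperm and testes. In sperm 2 to 4 the leading genes were Hnrnpa0 at 76.8 ± 28.8 FPKM (SD, n = 3), Srsf2 at 66.3 ± 14.6, Hnrnpu at 53.2 ± 25.1 and Srsf9 at 33.0 ± 7.56, and the first 3 of these did not differ beyond their spread. Srsf1 at 20.4 ± 12.9 and Hnrnpf at 20.1 ± 3.56 followed and lay within each other's spread. In testes Snrpf at 298 ± 137 FPKM (SD, n = 2) stood above Srsf2 at 58.5 ± 13.6 and Rbm12b1 at 50.4 ± 10.4, which overlapped, and Hnrnpf at 28.9 ± 3.99 and Rbm7 at 13.4 ± 1.78 came next. Hnrnpa3, chosen after its values were seen, varied between samples, at 57.3, 1611 and 254 CPM in sperm 2 to 4, none in sperm 1, and 373 and 86.8 in testes, and its log2 fold change of 1.44 (SE 0.802) did not pass (edgeR adjusted p 0.169).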
